A study of Danio rerio with 9 samples.

Results

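The genes described here are 10 components of the circadian clock that a list of names set out, *arntl1a*, *arntl1b*, *arntl2*, *per1a*, *per1b*, *per2*, *per3*, *nr1d1*, *nr1d2a* and *nr1d2b*. All 10 were found by symbol among the 33737 genes of the deposited table, and all 10 passed the filter on low values (0.5 RPKM or more in 3 libraries or more), which left 21982 genes to be tested. They were examined to see how alike the groups were in the time of collection and in their light response, as far as transcript levels can show it. RPKM is the number of reads on a gene scaled to its length and to the size of the library, here to library sizes that the authors had normalised.

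RNA came from whole zebrafish embryos of the TUAB strain at 72 hpf, in 3 pools of 30 embryos per group. The *MZcep290-/-* mutants lacked both maternal and zygotic wild-type *cep290* and carried a 10-bp deletion in exon 16. The *cep290ex25* morphants were TUAB embryos given a splice-blocking morpholino against exon 25, which acts transiently. No injection is named for the wild-type embryos (TuAB in the labels, siblings in the study's text), and no control-injected group was among the sequenced samples, so the injection and the loss of *cep290* function cannot be told apart in morphants. The labels do not give the parents of any pool, so clutch or background and the mutation cannot be told apart in mutants. The sources used here give neither the light cycle nor the hour of collection, so the clock time of each pool is unknown. Each pool mixes whole embryos, so fewer cells of a type and less RNA per cell cannot be told apart.

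The vertebrate clock is a transcriptional feedback loop. Clock and Bmal proteins (Bmal is encoded by the *arntl* genes) activate the *per*, *cry* and *nr1d* genes. Per and Cry proteins then repress Clock and Bmal, and the *nr1d* products (Rev-erb nuclear receptors) repress *arntl* genes, so that *arntl* transcripts peak at a different time of day from *per* and *nr1d* transcripts. In zebrafish nearly every tissue holds a clock that light can set directly, and *per2* is among the genes that light induces.

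Reads on genes were 18662115 to 21299112 per library in mutants, 9050375 to 16150393 in morphants and 5652757 to 7674248 in wild type, so the wild-type values rest on the fewest reads. Pairs of libraries of a group correlated across genes at r = 0.965 to 0.968 in mutants, 0.920 to 0.939 in morphants and 0.744 to 0.796 in wild type (log2 scale). The targeted gene *cep290* stood at 1.32, 1.14 and 1.29 RPKM in mutants and 5.45, 6.15 and 3.36 RPKM in morphants, against 2.60, 1.62 and 1.72 RPKM in wild type. Marker genes of muscle, blood, neurons, liver, lens, skin and pronephros were detected in every group, at levels that moved with the groups as given below. The neuron marker *gap43* was the exception, at 0 in every library. A gene is termed called below where limma gave a Benjamini-Hochberg adjusted p under 0.05 and the fold change was over 2. Over all genes 2286 were called higher and 2657 lower in mutants than in wild type, a split that became 6617 and 1050 with plain read totals, 1586 and 3645 with scaling on genes of 5 to 50 RPKM, and 2037 and 1382 with cyclic loess. In morphants 1637 genes were called higher and 3273 lower than in wild type, against 3019 and 2415, 777 and 4567, and 1563 and 914 under the same 3 scalings. Read totals moved the median log2 fold change of all genes to 0.68 in mutants and 0.22 in morphants, and the scaling on genes of 5 to 50 RPKM moved it to -0.24 and -0.38, from -0.02 and -0.05.

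Of the 10 clock genes, *per1a* alone was called, in mutants and in morphants, and it was lower than in wild type in both. That is 1 of 10 in each comparison, beside 22.5% of all genes called in mutants and 22.3% in morphants. An adjusted p under 0.05 at any fold was reached by 3 of 10 in mutants (*per1a*, *nr1d2a*, *nr1d2b*), beside 36.0% of all genes, and by 3 of 10 in morphants (*per1a*, *arntl2*, *nr1d2b*), beside 35.2%. Between mutants and morphants 0 of 10 were called, beside 5.89% of all genes. In that comparison 1 of 10 had an unadjusted p under 0.05 by limma, beside 28.5% of all genes. Limma voom on the recovered reads also called 0 of 10, while over 21982 genes it called 1651 higher and 689 lower. By limma voom 3 of 10 had an unadjusted p under 0.05, beside 8850 of the 21982 genes. The median log2 fold change of the 10 was 0.11 in mutants against wild type (all genes -0.02), -0.24 in morphants against wild type (all genes -0.05) and 0.33 in mutants against morphants (all genes 0.14). The comparisons with wild type share the same 3 wild-type libraries.

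Read by direction, calls of lower genes made up 12.1% of all genes in mutants and 14.9% in morphants, and calls of higher genes 10.4% and 7.45%. In mutants against morphants 3.48% were called higher and 2.4% lower. Libraries of mutants and wild type did not overlap in 5 of the 10 clock genes, beside 52.6% of all genes. Mutants were the higher group in 3 of these (*arntl2*, *nr1d2a*, *nr1d2b*), beside 25.0% of all genes, and the lower group in 2 (*per1a*, *per3*), beside 27.6%. Morphants did not overlap wild type in 3 of 10, beside 42.3%, with *arntl2* higher (19.9% of all genes) and *per1a* and *per3* lower (22.4%). Mutants lay above morphants with no overlap in 4 of 10 (*per1b*, *arntl1b*, *nr1d2a*, *nr1d2b*), beside 26.1% of all genes, and below in 0 of 10, beside 21.2%, so that 47.3% of all genes had no overlap there. With 10 genes, none of these counts was far from the share over all genes.

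**Figure D1:**
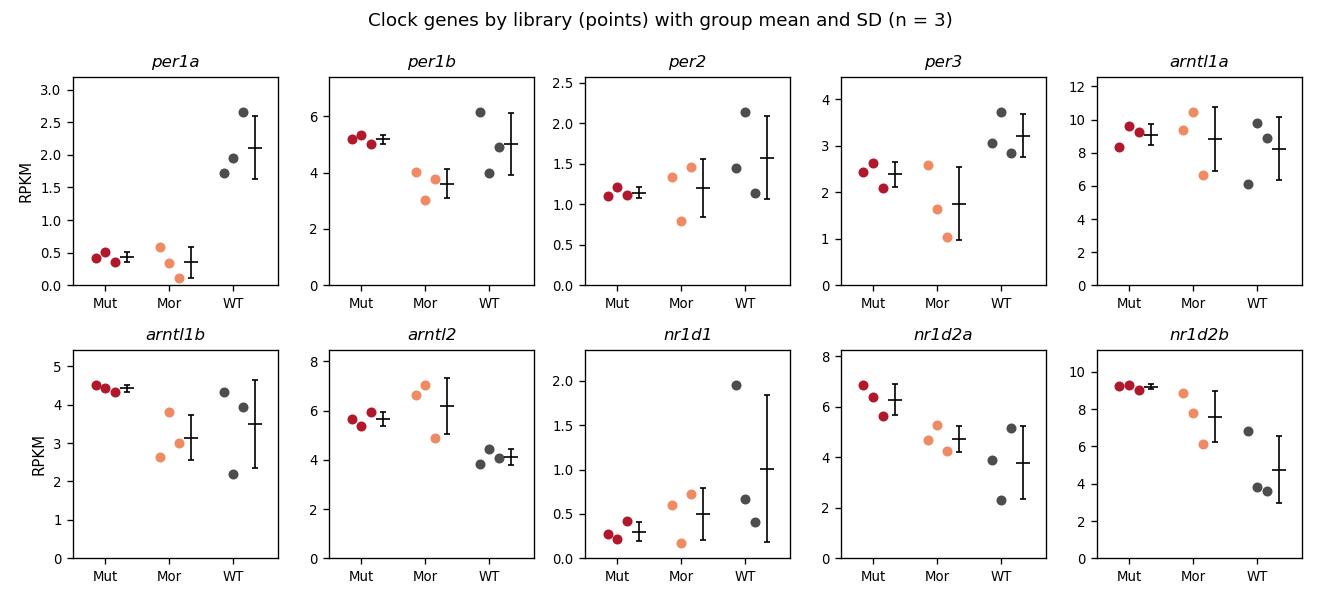
RPKM of the 10 clock genes in each library (points) of mutants (Mut), morphants (Mor) and wild type (WT), with the group mean and SD (n = 3) as a bar beside the points; each panel has its own axis from 0. Wild-type *per1a* lies at 1.72 to 2.66 RPKM, above all mutant and morphant libraries, while most other genes overlap between groups or differ by less than 2-fold.

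Among the activators, *arntl1a* was the most abundant. It stood at 8.37, 9.61 and 9.27 RPKM in mutants and 9.35, 10.5 and 6.66 RPKM in morphants, against 6.11, 9.78 and 8.87 RPKM in wild type. The groups overlapped fully, with a low library in morphants and another in wild type. Its log2 fold change was 0.16 in mutants (95% interval -0.32 to 0.65, limma adjusted p = 0.597) and 0.10 in morphants (-0.39 to 0.59, adjusted p = 0.751). Both estimates change sign with the scaling on genes of 5 to 50 RPKM (-0.06 and -0.24) and with cyclic loess (-0.13 and -0.27), and both intervals leave out a 2-fold change.

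The paralogue *arntl1b* measured 4.51, 4.43 and 4.33 RPKM in mutants and 2.64, 3.80 and 2.99 RPKM in morphants, against 4.34, 2.19 and 3.95 RPKM in wild type. Morphants lay within the wild-type range, and 2 of the 3 mutant libraries lay just above it. The log2 fold change was 0.39 in mutants (-0.23 to 1.01, adjusted p = 0.302) and -0.11 in morphants (-0.72 to 0.51, adjusted p = 0.786), and the morphant value turned positive with plain read totals (0.17). Every mutant library lay above every morphant library, yet the difference did not pass limma (0.50, -0.12 to 1.11, adjusted p = 0.274). The spread in that test also comes from wild type (SD 1.14 RPKM, against 0.09 in mutants and 0.60 in morphants). The adjusted p was under 0.05 in 0 of 21 alternatives, among them the fit with only the groups compared.

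*arntl2*, which encodes the second Bmal protein, was the activator gene that set wild type apart. It stood at 5.65, 5.39 and 5.94 RPKM in mutants and 6.63, 7.05 and 4.91 RPKM in morphants, against 3.83, 4.44 and 4.08 RPKM in wild type. All 6 libraries of mutants and morphants were above all 3 of wild type. In morphants the log2 fold change of 0.56 (SE 0.175, 0.17 to 0.96) passed the adjusted p (0.0335) but not the 2-fold limit, and in mutants 0.45 (0.06 to 0.85) did not pass it (adjusted p = 0.0729). The morphant adjusted p stayed under 0.05 in 9 of 21 alternatives. In mutants *arntl2* was called higher with plain read totals (1.17). Genes of a similar level, 4 to 8 RPKM on average, had median log2 fold changes of 0.33 in mutants and 0.31 in morphants.

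Among the repressors, *per1a* fell 4.15-fold in mutants and 5.35-fold in morphants. Per1 proteins are core repressors of the loop. Its level was 0.43, 0.51 and 0.35 RPKM in mutants and 0.59, 0.35 and 0.12 RPKM in morphants, against 1.72, 1.96 and 2.66 RPKM in wild type. These values rest on 39 to 52 reads in mutants, 4 to 27 reads in morphants and 35 to 63 reads in wild type. No library of either group reached the lowest of wild type. The log2 fold change was -2.05 in mutants (SE 0.502, -3.18 to -0.92, limma adjusted p = 0.0117) and -2.42 in morphants (SE 0.502, -3.55 to -1.29, adjusted p = 0.00575). A two-sided exact permutation test of the RPKM gave p = 0.1 for each, the smallest that 3 against 3 allows. Mutants and morphants overlapped (log2 fold change 0.37, -0.76 to 1.5, adjusted p = 0.682).

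Low-level genes that passed the filter were as a whole lower in both groups than in wild type, and *per1a* was one of them. The filter asked for 0.5 RPKM in 3 libraries, which shallow libraries reach with fewer reads. On a 2-kb gene 3 reads equal 0.27 to 0.31 RPKM in wild type, 0.09 to 0.19 in morphants and 0.05 to 0.06 in mutants. The part of the filter and of depth in the shift was not tested. Outside wild type, *per1a* reached 0.5 RPKM only in mutant replicate 2 (0.51) and morphant replicate 1 (0.59). It thus passed the filter only through wild type, the group where it was high, which favoured its call as lower. The mean of *per1a* over the 9 libraries was 0.965 RPKM. Among the 3740 genes tested with a mean under 1 RPKM, the median log2 fold change was -1.05 in mutants, with 29.8% called lower, and -1.80 in morphants, with 43.3% called lower. The lowest decile of those genes began at -2.72 in mutants and -3.76 in morphants, so *per1a* lay between the outer deciles of its level band in both. Cyclic loess, which removes trends with level, gave *per1a* -0.97 (adjusted p = 0.184) in mutants and -0.57 (adjusted p = 0.449) in morphants. In the other 19 alternatives that kept the gene it was called lower in both comparisons, including each that left out a library, where the log2 fold change ran from -2.18 to -1.88 in mutants and from -2.80 to -1.97 in morphants. The part of the shift at low levels in the *per1a* result was not tested beyond these values.

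**Figure D2:**
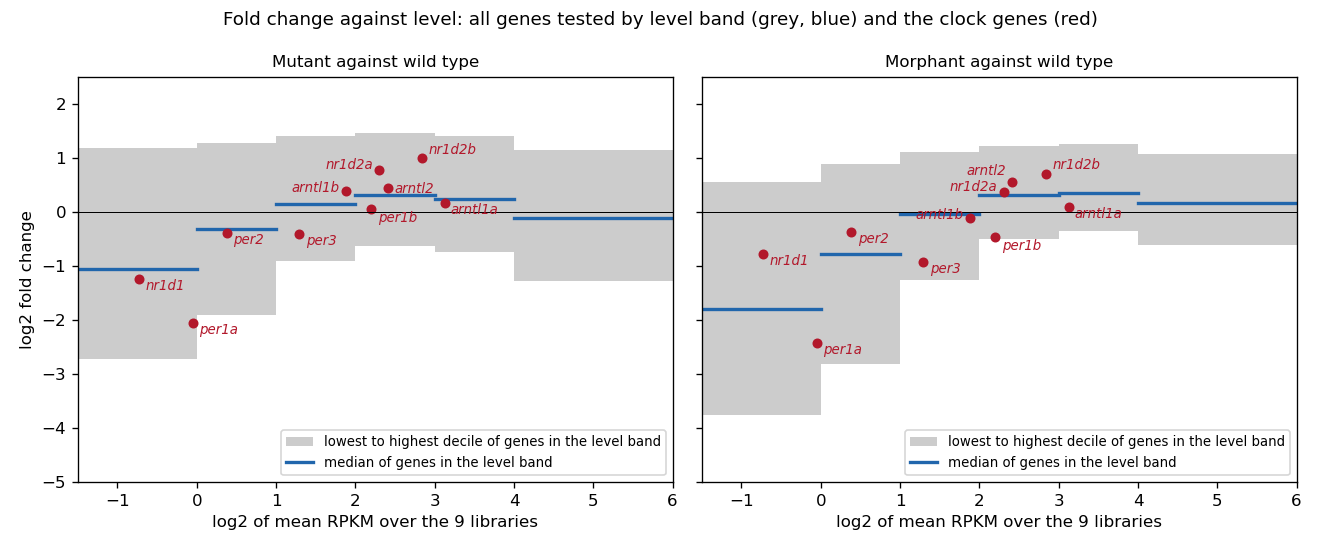
Log2 fold change against wild type (vertical axis) by the log2 of the mean RPKM over the 9 libraries (horizontal axis), in mutants (left) and morphants (right), with the clock genes as red points, the median of all genes in each level band as blue lines and their lowest to highest decile in grey. Under 1 RPKM the median of all genes is -1.05 in mutants and -1.80 in morphants, and *per1a* and *nr1d1* lie in that band.

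Its paralogue *per1b* had the highest level of the *per* genes and did not share that difference. It measured 5.21, 5.32 and 5.0 RPKM in mutants and 4.02, 3.02 and 3.78 RPKM in morphants, against 6.15, 3.98 and 4.92 RPKM in wild type. Mutants lay within the wild-type range, with a log2 fold change of 0.07 (-0.39 to 0.52, adjusted p = 0.830) whose sign changes with the scaling on genes of 5 to 50 RPKM (-0.15) and with cyclic loess (-0.24). In morphants it was -0.45 (-0.91 to 0.00, adjusted p = 0.112). All mutant libraries were above all morphant libraries, at 0.52 (0.06 to 0.98, unadjusted p = 0.0303 and adjusted p = 0.129 by limma). *per1b* was the only one of the 10 with an unadjusted p under 0.05 by limma there, beside 28.5% of all genes.

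The light-induced *per2* stood at 1.1, 1.22 and 1.11 RPKM in mutants and 1.34, 0.79 and 1.46 RPKM in morphants, against 1.45, 2.14 and 1.14 RPKM in wild type. The groups overlapped, and the highest value was a single wild-type library. The log2 fold changes were -0.39 in mutants (-1.22 to 0.44, adjusted p = 0.447) and -0.37 in morphants (-1.2 to 0.46, adjusted p = 0.468). The mutant value was 0.29 with plain read totals, and the morphant value was 0.35 with cyclic loess. At 42 to 68 reads per wild-type library, both intervals hold no difference as well as a 2-fold lower level.

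*per3* measured 2.43, 2.62 and 2.09 RPKM in mutants and 2.59, 1.63 and 1.03 RPKM in morphants, against 3.06, 3.72 and 2.85 RPKM in wild type. Every wild-type library was above the other 6, by a narrow margin. Neither difference passed, at -0.41 in mutants (-1.16 to 0.33, adjusted p = 0.366) and -0.92 in morphants (-1.66 to -0.17, adjusted p = 0.0570). In morphants it was called lower with the scaling on genes of 5 to 50 RPKM (-1.24) and without morphant replicate 1 (-1.23). In mutants the value was 0.29 with plain read totals.

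The *nr1d* genes, whose products repress *arntl* transcription, were led by *nr1d2b*. It stood at 9.25, 9.30 and 9.05 RPKM in mutants and 8.86, 7.79 and 6.14 RPKM in morphants, against 6.82, 3.82 and 3.61 RPKM in wild type. Mutants were above every wild-type library, whereas the lowest morphant library was below the highest of wild type. The log2 fold change in mutants was 1.00 (SE 0.244, 0.45 to 1.55, limma adjusted p = 0.0116), at a fold just under the limit of 2. In 5 of 21 alternatives it was called higher, among them plain read totals (1.72). Leaving out wild-type replicate 1 gave 1.29 and leaving out mutant replicate 3 gave 1.01, both called. In morphants 0.71 (0.16 to 1.26) passed the adjusted p (0.0481) but stayed under 2-fold, and 7 of 21 alternatives kept that adjusted p under 0.05. Genes of 4 to 8 RPKM on average, the band of *nr1d2b* and *nr1d2a*, had median log2 fold changes of 0.33 in mutants and 0.31 in morphants. In mutants the highest decile of that band began at 1.46, and 17.5% of its genes were called higher.

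*nr1d2a* showed a smaller difference in mutants. It measured 6.87, 6.37 and 5.63 RPKM in mutants and 4.68, 5.28 and 4.25 RPKM in morphants, against 3.90, 2.31 and 5.17 RPKM in wild type. Mutants lay above all other libraries, while morphants overlapped wild type. The log2 fold change was 0.78 in mutants (0.17 to 1.39, adjusted p = 0.0489) and 0.38 in morphants (-0.23 to 0.99, adjusted p = 0.307). The mutant adjusted p stayed under 0.05 in 6 of 21 alternatives, and the gene was called higher without wild-type replicate 3 (1.04).

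The third family member, *nr1d1*, was near the limit of detection. It had 0.27, 0.21 and 0.42 RPKM in mutants (16 to 34 reads) and 0.60, 0.17 and 0.73 RPKM in morphants (9 to 20 reads), against 1.95, 0.67 and 0.41 RPKM in wild type (7 to 29 reads). A single wild-type library held most of the wild-type signal. The log2 fold changes of -1.24 in mutants (-2.74 to 0.26, adjusted p = 0.177) and -0.78 in morphants (-2.28 to 0.72, adjusted p = 0.391) did not pass, and with cyclic loess they were 0.22 and 1.62.

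**Figure D3:**
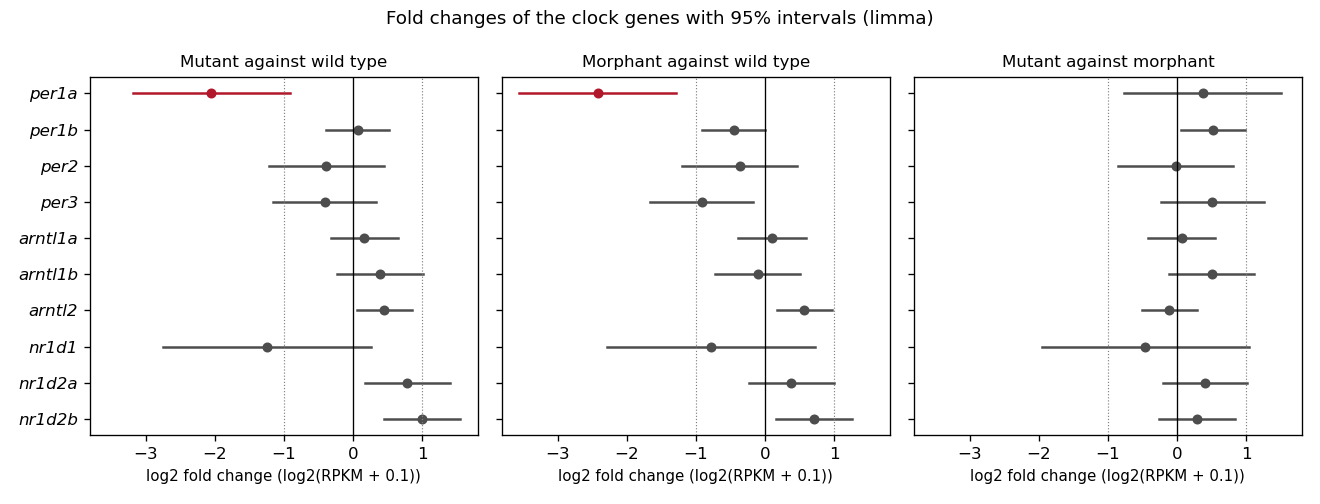
Log2 fold changes on the log2(RPKM + 0.1) scale (points) with 95% intervals from limma (lines) for the 10 clock genes, in mutants against wild type (left), morphants against wild type (middle) and mutants against morphants (right); dotted lines mark 2-fold and red marks called genes. *per1a* alone is red, at -2.05 and -2.42, and the intervals of *nr1d1* are the widest.

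The members varied little between mutant pools. The highest library was a median 1.13 times the lowest over the 10 genes in mutants, 1.51 times in morphants and 1.74 times in wild type. Over all genes of 1 to 16 RPKM these medians were 1.2 in mutants, 1.48 in morphants and 1.80 in wild type, beside 1.1, 1.44 and 1.74 for the 8 clock genes in that range. In mutants the narrowest spread was that of *nr1d2b* (1.03 times) and the widest that of *nr1d1* (1.97 times). In morphants the range ran from *nr1d2a* (1.24 times) to *per1a* (5.03 times), and in wild type from *arntl2* (1.16 times) to *nr1d1* (4.82 times). The spread of the clock genes within a group was thus close to that of other genes in the same libraries. Depth, lowest in wild type, moves with this order, and its part was not tested.

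By mean RPKM, which is per length, *nr1d2b* and *arntl1a* led in mutants with overlapping libraries, followed by *nr1d2a* and *arntl2*, which also overlapped, then *per1b*, *arntl1b*, *per3*, *per2*, *per1a* and *nr1d1*, the last pair again overlapping. In morphants the order was *arntl1a*, *nr1d2b*, *arntl2*, *nr1d2a*, *per1b*, *arntl1b*, *per3*, *per2*, *nr1d1* and *per1a*. In wild type it was *arntl1a*, *per1b*, *nr1d2b*, *arntl2*, *nr1d2a*, *arntl1b*, *per3*, *per1a*, *per2* and *nr1d1*. Of the 9 neighbouring pairs, 3 overlapped in mutants, 6 in morphants and 8 in wild type. The pairs that did not overlap in morphants were *nr1d2a* and *per1b*, *arntl1b* and *per3*, and *per2* and *nr1d1*. In wild type only *per3* and *per1a* were separated among neighbours. The highest mean was 30.5 times the lowest in mutants, 25.0 times in morphants and 8.17 times in wild type.

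Ratios between genes of the same library do not depend on a scaling by 1 factor per library. They do depend on cyclic loess, which shifts genes by level, and were not recomputed with it. The summed RPKM of the 3 *arntl* genes was 2.02, 2.01 and 2.28 times that of the 4 *per* genes in mutants and 2.18, 3.68 and 2.28 times in morphants, against 1.15, 1.39 and 1.46 times in wild type. Wild type stood below all other libraries. Without *per1a* the ratio was 2.12, 2.12 and 2.38 in mutants and 2.34, 3.91 and 2.32 in morphants, against 1.34, 1.67 and 1.90 in wild type, which still did not overlap.

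The summed *nr1d* level relative to *per* was 1.79, 1.64 and 1.77 in mutants and 1.65, 2.29 and 1.74 in morphants, against 1.02, 0.58 and 0.79 in wild type. Between the paralogues *per1b* and *per1a* the ratio was 12.2, 10.5 and 14.2 in mutants and 6.77, 8.70 and 32.1 in morphants, against 3.58, 2.03 and 1.85 in wild type. By contrast *arntl1a* over *arntl1b* overlapped, at 1.85, 2.17 and 2.14 in mutants and 3.55, 2.75 and 2.23 in morphants, against 1.41, 4.45 and 2.25 in wild type. These ratios are given as descriptions with no test, since the genes were chosen with earlier results known. The shift with level described for genes under 1 RPKM, where *per1a* and *nr1d1* lie, also runs through them. Genes of 1 to 2 RPKM, the band of *per2*, had medians of -0.31 in mutants and -0.77 in morphants. At 4 to 8 RPKM, the band of *per1b*, *arntl2*, *nr1d2a* and *nr1d2b*, the medians were 0.33 and 0.31. Leaving out *per1a* therefore does not take the shift out of the ratios, and its part was not tested.

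**Figure D4:**
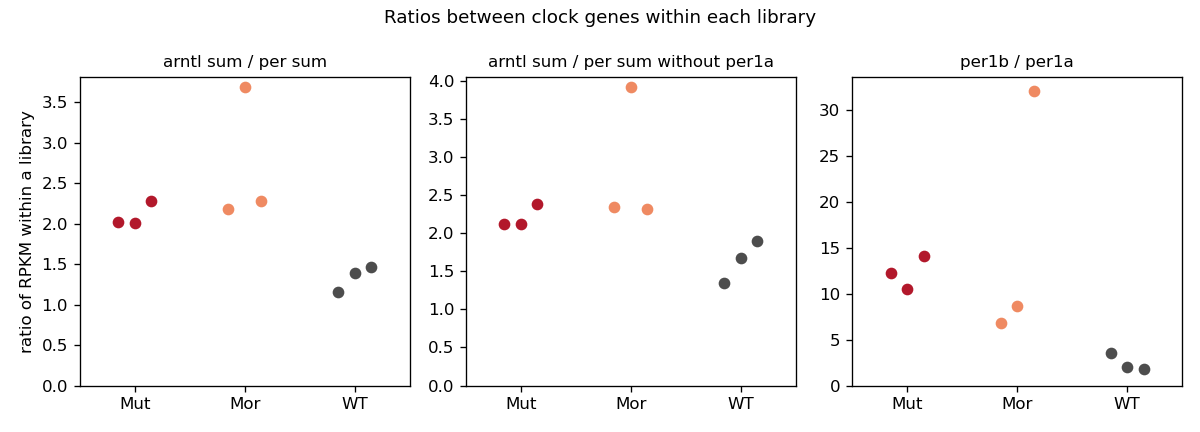
Ratios of RPKM within each library (points) for mutants (Mut), morphants (Mor) and wild type (WT): summed *arntl* over summed *per* genes, the same without *per1a*, and *per1b* over *per1a*; each axis starts at 0. Wild type lies at 1.15 to 1.46 for the first ratio, below all mutant and morphant libraries.

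Other genes of the clock were read from 3 lists with 52 entries in the table, of which 50 were tested. In mutants 8 were called higher and 0 lower than wild type (16% of 50, beside 22.5% of all genes). By direction, 10.4% of all genes were called higher and 12.1% lower. The median log2 fold change of the 50 was 0.10. In morphants 4 were called higher and 4 lower (16%, beside 22.3%, as 7.45% higher and 14.9% lower), with a median of 0.13. Between mutants and morphants 0 of 50 were called, beside 5.89% of all genes. By limma 19 had an unadjusted p under 0.05, beside 28.5% of all genes. The limma adjusted p was under 0.05, at less than 2-fold, for *rora*, which was higher in mutants. The same held for *bhlhe40*, *nfil3*, *csnk1db*, *csnk2a1*, *csnk2b*, *timeless* and a *cry3* entry, which were lower in mutants. Of all genes 13.6% reached that adjusted p at any fold. For that comparison limma voom on the recovered reads called 4, beside 1651 higher and 689 lower of 21982 genes. Leaving out morphant replicate 2 gave 2, beside 898 higher and 626 lower of 21846 genes.

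Of the 25 tested transcription factors and cofactors, 5 were called higher in mutants, and 4 higher and 4 lower in morphants. That is 20% of 25 in mutants and 32% in morphants, beside 22.5% and 22.3% of all genes. By direction, 10.4% of all genes were called higher in mutants, and 7.45% higher and 14.9% lower in morphants. *tefa*, a PAR bZIP factor linked in zebrafish to the light response, measured 15.2, 15.99 and 13.6 RPKM in mutants and 14.3, 14.9 and 14.1 RPKM in morphants, against 7.38, 4.61 and 5.08 RPKM in wild type. It rose by 1.41 on the log2 scale in mutants (adjusted p = 0.000318) and 1.36 in morphants (adjusted p = 0.000614). *ciarta*, the orthologue of a repressor of Clock and Bmal in mammals, stood at 13.5, 13.6 and 13.3 RPKM in mutants and 11.5, 11.6 and 11.2 RPKM in morphants, against 3.69, 4.14 and 5.39 RPKM in wild type. Its log2 fold changes of 1.61 and 1.37 were called in all 21 alternatives.

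The Ror receptors bind the same elements as the *nr1d* products and act as activators. *rorb* measured 12.2 RPKM in each mutant library and 8.08, 8.32 and 8.03 RPKM in morphants, against 4.42, 5.31 and 2.68 RPKM in wild type, with log2 fold changes of 1.59 and 1.01. The mutant call held in all 21 alternatives and the morphant call in 15, but not without morphant replicate 2 (0.9995) or without wild-type replicate 3 (0.74), where the fold was under 2. *rorab* (1.29 in mutants) and *tefb* (1.38 in mutants and 1.14 in morphants) were called as well, and are named after their values were seen. Of genes of 8 to 16 RPKM, the band of *tefa*, *tefb*, *ciarta* and *rorb*, 17.9% were called higher in mutants and 15.4% in morphants. At 4 to 8 RPKM, the band of *rorab*, these shares were 17.5% and 12.1%.

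The 4 factors called lower in morphants had few reads in at least 1 morphant library. *rorc* had 0 reads in every morphant library, against 5 to 10 reads in wild type. *nr1d4a*, a paralogue of the *nr1d* genes, had 2 to 4 reads in morphants, against 7 to 17 reads in wild type (log2 fold change -2.37), and with cyclic loess its value was 0.26. Outside wild type, *rorc* and *nr1d4a* reached 0.5 RPKM only in mutant replicate 2 (0.94 and 0.56). Both thus passed the filter solely through wild type, where they were high, which favoured their calls as lower. *dbpa* and *dbpb*, PAR bZIP factors under clock control, had log2 fold changes of -1.71 and -1.83, and kept the call in 6 and 10 of 20 alternatives. Without morphant replicate 3 they were -0.93 (adjusted p = 0.0509) and -1.39 (adjusted p = 0.0729), and leaving out most other single libraries for *dbpa*, or morphant replicate 1 and wild-type replicates 1 and 3 for *dbpb*, also ended the call. In each of these genes morphant replicate 3, the shallowest morphant library, had 6 reads or fewer. Under 1 RPKM on average, the band of *rorc*, *nr1d4a* and *dbpb*, 43.3% of all genes were called lower in morphants. At 1 to 2 RPKM, the band of *dbpa*, 25.9% were.

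Cryptochromes pair with Per proteins as repressors. Of 9 tested entries, from a list that also holds photolyases, *cry2a* and *cry2b* were called higher in mutants and 0 in morphants. That is 22.2% of 9 in mutants, beside 22.5% of all genes called and 10.4% called higher. At 8 to 16 RPKM, the band of *cry2a*, 17.9% of genes were called higher in mutants. At 2 to 4 RPKM, the band of *cry2b*, 9.96% were. *cry2a* stood at 18.4, 16.9 and 17.6 RPKM in mutants and 12.1, 15.1 and 11.7 RPKM in morphants, against 6.81, 8.48 and 7.77 RPKM in wild type. The log2 fold change was 1.19 in mutants (adjusted p = 0.000220) and 0.74 in morphants, which passed the adjusted p (0.00313) but not the fold limit. *cry2b* had 1.1 in mutants (adjusted p = 0.00516) and 0.48 in morphants (adjusted p = 0.126). The mutant calls held in 19 of 21 alternatives for *cry2a* and in 18 for *cry2b*. Both fell under 2-fold with scaling on genes of 5 to 50 RPKM (0.97 and 0.89) and with cyclic loess (0.94 and 0.96). A pseudocount of 1 also ended the *cry2b* call (0.82).

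Of 16 kinases, ubiquitin ligases and partners of clock proteins, *fbxl3a*, whose product marks Cry proteins for degradation in mammals, was called higher in mutants and none in morphants. That is 6.25% of 16 in mutants, beside 22.5% of all genes called and 10.4% called higher. *fbxl3a* had 0.94, 0.82 and 1.01 RPKM in mutants and 0.33, 0.49 and 0.30 RPKM in morphants, against 0.17, 0.14 and 0.12 RPKM in wild type, where it rested on 5 or 6 reads per library. Only mutant libraries reached 0.5 RPKM, so *fbxl3a* passed the filter solely through the group where it was high. The filter thus favoured its call as higher, and it is 1 of the 8 counted above. Of 17 alternatives that kept the gene, 16 kept the call, which ended with a pseudocount of 1 (0.75).

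**Figure D5:**
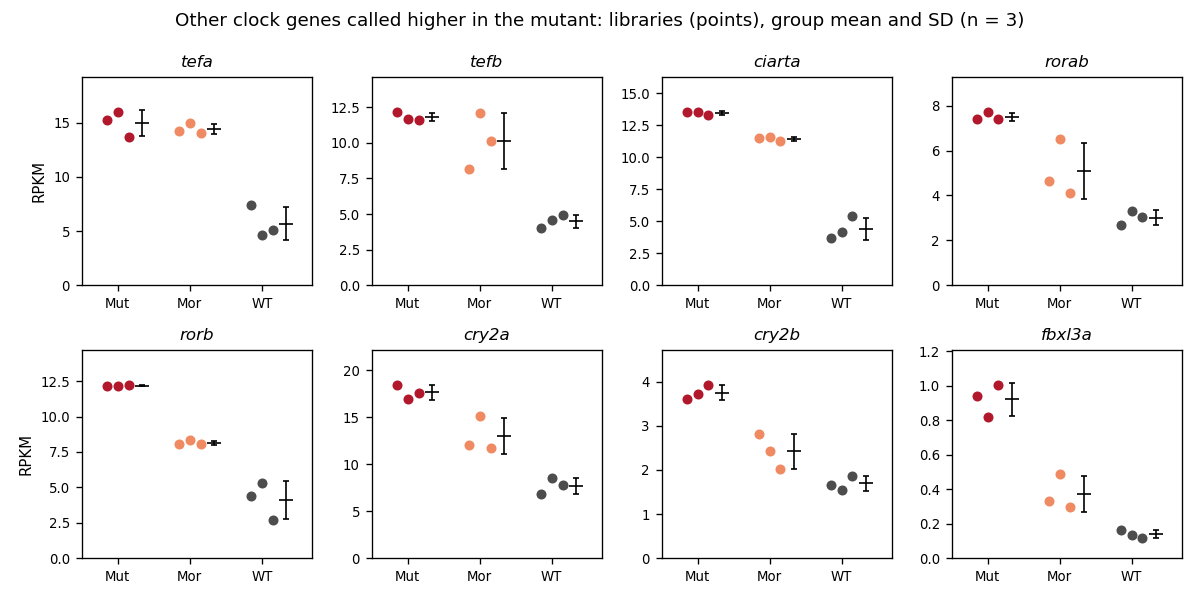
RPKM in each library (points) of the 8 other clock genes called higher in mutants (Mut) than in wild type (WT), with morphants (Mor) between them and the group mean and SD (n = 3) beside the points; each axis starts at 0. For *tefa* the 6 mutant and morphant libraries lie at 13.6 to 15.99 RPKM, against 4.61 to 7.38 RPKM in wild type.

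The light response was read from 12 genes that light induces in zebrafish, *per2* among them. In mutants 2 were called higher (*tefa* and *lonrf1*) and 0 lower (16.7% of 12, beside 22.5% of all genes, as 10.4% higher and 12.1% lower). The median log2 fold change was -0.07, beside -0.02 over all genes. In morphants 2 were called higher (*tefa* and *hmox1a*) and 0 lower (16.7%, beside 22.3%, as 7.45% higher and 14.9% lower). The median was 0.20, beside -0.05. *hmox1a*, a heme oxygenase that many stresses also induce, measured 9.72, 9.30 and 10.4 RPKM in mutants and 21.3, 17.6 and 23.5 RPKM in morphants, against 8.35, 5.40 and 7.17 RPKM in wild type. It was called lower in mutants than in morphants (-1.07, adjusted p = 0.00459), though not without morphant replicate 3 (-0.98). *lonrf1* rose by 1.04 on the log2 scale in mutants, a call that 16 of 21 alternatives kept and that ended without wild-type replicate 3, just under the fold limit (0.9994).

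The light-induced repressor *cry1a* stood at 2.69, 2.86 and 2.56 RPKM in mutants and 3.50, 2.81 and 3.56 RPKM in morphants, against 4.91, 3.82 and 4.66 RPKM in wild type. All wild-type libraries were above the rest, and the mutant log2 fold change of -0.70 passed the adjusted p (0.0224) but not the fold limit. The morphant value was -0.43 (adjusted p = 0.122). Of the 12 light-induced genes, *egr1* (-0.57, limma adjusted p = 0.0114) and *hmox1a* (0.51, limma adjusted p = 0.0487) also passed the adjusted p but not the fold limit in mutants. Uncalled genes of the list also moved up in mutants, *ddb2* by 1.08 (limma adjusted p = 0.0728) and *neil1* by 2.63 (limma adjusted p = 0.126). *neil1* had 0 to 33 reads per library in wild type. In mutants 6 of the 12 had a log2 fold change above 0. *cry1a*, *egr1*, *ddb2*, *neil1* and *aanat2* are described although they were not called, a choice made after their values were seen.

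Melatonin and pineal genes gave a mixed picture. Of 10 tested, 1 was called higher and 1 lower in mutants (20%, beside 22.5% of all genes). In morphants 0 were called higher and 4 lower (40%, beside 22.3%, of which calls of lower genes were 14.9%). Of these 4, *parietopsin* averaged 0.51 RPKM, *aanat1* 1.12, *tph1b* 1.77 and *otx5* 14.5. In morphants 43.3% of genes under 1 RPKM were called lower, 25.9% of those of 1 to 2 RPKM and 1.58% of those of 8 to 16 RPKM. *aanat2*, the pineal enzyme whose transcript follows the clock in zebrafish, was not called, at 2.25, 2.44 and 1.76 RPKM in mutants and 1.47, 1.61 and 1.46 RPKM in morphants, against 3.99, 1.71 and 3.06 RPKM in wild type. Its log2 fold change was -0.36 in mutants (adjusted p = 0.440) and -0.83 in morphants (adjusted p = 0.0810).

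*aanat1*, the related enzyme of the retina, measured 1.04, 0.54 and 0.80 RPKM in mutants and 0.63, 0.23 and 0.49 RPKM in morphants, against 2.58, 2.23 and 1.51 RPKM in wild type. It was called lower in mutants (-1.31) and in morphants (-2.04). Of 20 alternatives, 7 kept the mutant call and 18 the morphant call. The mutant call ended without any 1 of the mutant libraries, wild-type replicates 1 and 2 or morphant replicate 3 (-1.51 to -1.09). *tph1b* (-2.04), which encodes a tryptophan hydroxylase, and the homeobox gene *otx5* (-1.06) were called lower in morphants. The *otx5* call ended without morphant replicate 3 (-0.82), wild-type replicate 1 (-0.91) or wild-type replicate 3 (-0.995). Also called lower in morphants was *parietopsin*, an opsin gene with 0 reads in every morphant library and 3 to 10 reads in wild type. Outside wild type, *parietopsin* reached 0.5 RPKM only in mutant replicate 3 (0.65). It thus passed the filter solely through wild type, which favoured its call as lower.

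The mutant call of *bsx*, a homeobox gene, came from 2 wild-type libraries with 0 reads and was kept by 6 of 21 alternatives. Leaving out any single library apart from wild-type replicate 2 ended it. *crx*, a regulator of photoreceptor genes, had 19.1, 16.8 and 19.0 RPKM in mutants and 8.21, 8.77 and 8.16 RPKM in morphants, against 9.09, 14.2 and 22.3 RPKM in wild type. It was called higher in mutants than in morphants (1.12, adjusted p = 0.0229), a call that leaving out any mutant library or morphant replicate 1 or 3 ended (1.09 to 1.18). A second entry of that name was at or near 0 throughout.

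Photoreceptor markers, genes of the light-sensing cells of the retina, moved with the groups. Of 14 tested entries, 11 were called lower in mutants and 12 in morphants, and 0 higher in either. The summed level of the 16 entries was 65.0 to 69.9 RPKM in mutants and 52.6 to 66.9 RPKM in morphants, against 473 to 554 RPKM in wild type. A second *rho* entry and *opn1mw1* were at 0 in every library. Neuron markers moved the other way in mutants, with 4 of 4 tested called higher and a sum of 342 to 356 RPKM in mutants and 150 to 200 RPKM in morphants, against 89.5 to 103 RPKM in wild type. The neuron marker *gap43*, at 0 in every library, was not tested. Muscle markers had 4 of 6 called lower in mutants and 0 of 6 in morphants, with a sum of 20072 to 21390 RPKM in mutants and 35849 to 51147 RPKM in morphants, against 62802 to 80741 RPKM in wild type. Red blood cell markers had 5 of 6 called lower in mutants, and 3 lower and 1 higher in morphants. Their sum was 4359 to 4568 RPKM in mutants and 5967 to 8487 RPKM in morphants, against 11857 to 16880 RPKM in wild type. Of 4 skin markers, 3 were called lower in mutants and 0 in morphants, and of 4 liver markers 2 were called lower in mutants and 1 in morphants. Of 4 lens markers, 1 was called higher in mutants, and 1 higher and 1 lower in morphants, while 0 of 3 pronephros markers were called in either. Beside these counts, 12.1% of all genes were called lower and 10.4% higher in mutants, and 14.9% and 7.45% in morphants. The part of these markers in the clock gene results was not tested.

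Over the 9 libraries, the genes whose log2 levels followed *nr1d2b* most closely were *tfb2m* (r = 0.988), *rab42a* (0.980), *sdr16c5b* (0.979), *hspa12b* (0.979) and *phf2* (0.976). For *arntl1a* they were *trim47* (0.970), *CABZ01032468.1* (0.960), a *CARTPT* entry (0.958), *cln6a* (0.954) and *CABZ01086354.1* (0.943). These are descriptions, since the libraries share groups and depth.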

How the data were processed

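PolyA RNA of 9 pools was made into directional libraries and read as 50-bp single-end reads. The authors used STAR for alignment to Zv9, HTSeq for reads per gene and edgeR for differences, and deposited RPKM values for 33737 genes. Versions, annotation release and counting options are not given in the sources used here, so genes with near-identical copies can share reads. Values times gene length were whole multiples of 1 read (tolerance 0.01), which gave the reads per library. 0 columns of per-sample values were left unused.

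Values were taken as log2(RPKM + 0.1), which understates changes of low genes. Genes that reached 0.5 RPKM in 3 libraries or more were fitted across the 9 libraries as 3 group means with limma 3.58.1 (trend) in R 4.3.3, with Benjamini-Hochberg adjustment over 21982 genes. Single genes also had an exact permutation test. The fit was tested on simulated reads with the same spread in every group, where genes of 2 RPKM or more on average were raised in mutants. That simulation did not cover changes of lower genes, falls, or the wider spread of the wild-type libraries. Python 3.11.15, pandas 2.3.3 and matplotlib 3.10.9 made the summaries. The labels call replicates biological. Whether pools came from separate clutches is not given, so p-values measure the spread between these pools. That spread was estimated per gene over all 3 groups, so wild type also enters the tests of mutants against morphants.

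The clock genes and all gene lists were chosen with earlier results of these data known. All 10 clock genes are named, and from each list of clock, light-induced and pineal genes those called in at least 1 comparison, at most 6 by the largest change from wild type. Cell type markers are given by counts and sums. For the *nr1d* or *per* gene and the *arntl* gene with the highest mean, the 5 genes with the highest Pearson r are named. Lists were matched by symbol. No sequences or coordinates are given, since the reference tables used here are of another build than Zv9.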

Additional observations from a re-analysis of the deposited data

How the results depend on the processing

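Each result was recomputed under 21 alternatives. edgeR and DESeq2 on recovered reads were not run, since the deposited unit is RPKM. Limma voom on recovered reads and the split of genes by level were chosen after seeing the data. Of 618 values of the clock genes under an alternative, 574 kept their direction and their side of the test, 31 changed direction, 11 gained a call and 2 lost one, both of *per1a* with cyclic loess.

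The count of clock genes called in mutants against wild type was 2 with a pseudocount of 0.01 and with voom, 5 with read totals, 0 with cyclic loess and 0 with a mean of at least 2 RPKM, which leaves *per1a* out, and 1 to 2 with a library left out. In morphants it was 2 with scaling on genes of 5 to 50 RPKM, 0 with cyclic loess and with only genes of 2 RPKM or more on average, and 1 to 2 with a library left out. For the other clock genes it was 20 with read totals and 5 with cyclic loess in mutants against wild type. In morphants it was 5 with a pseudocount of 1, 4 with a mean of at least 2 RPKM, 3 with cyclic loess and 4 with group weights. Between mutants and morphants it was 6 with read totals, 4 with voom, 1 with a pseudocount of 0.01, with scaling on genes of 5 to 50 RPKM, with group weights and with only the groups compared, and 0 to 2 with a library left out.

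Over all genes, those called higher in mutants than wild type numbered 6617 with read totals, and those called lower 1015 with a mean of at least 2 RPKM, 1050 with read totals, 1382 with cyclic loess and 1605 to 2802 with a library left out. In morphants 3019 were higher with read totals and 777 with scaling on genes of 5 to 50 RPKM, and 622 lower with a mean of at least 2 RPKM, 914 with cyclic loess, 1768 with group weights and 1965 to 2914 with a library left out. Mutants against morphants gave 421 higher with a pseudocount of 1, 482 with a mean of at least 2 RPKM, 2377 with read totals, 499 with cyclic loess, 1731 with group weights, 1179 with only the groups compared, 1651 with voom and 245 to 947 with a library left out, and 178 lower with read totals.

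These log2 fold changes reversed. In mutants against wild type they were *per1b* at -0.15 (scaling on genes of 5 to 50 RPKM) and -0.24 (cyclic loess), *per2* and *per3* at 0.29 (read totals), *arntl1a* at -0.0571 and -0.13 (the same scaling, cyclic loess) and *nr1d1* at 0.22 (cyclic loess). In morphants against wild type they were *per2* at 0.35, *nr1d1* at 1.62 and *nr1d4a* at 0.26 (cyclic loess), *arntl1a* at -0.24 (scaling) and -0.27 (cyclic loess), and *arntl1b* at 0.17 (read totals). In mutants against morphants they were *per1a* at -0.40 (cyclic loess), *per2* at 0.39 (read totals) and 0.088 (scaling) and 0.0910 (voom), *arntl1a* at -0.00917 (voom), and *arntl2* at 0.32 (read totals) and 0.0069 (scaling). With a library left out, mutants against wild type ran from -0.087 to 0.22 for *per1b* and from -0.038 to 0.30 for *arntl1a*. Morphants against wild type ran from -0.10 to 0.29 for *arntl1a* and from -0.40 to 0.074 for *arntl1b*. Mutants against morphants ran from -0.083 to 0.75 for *per1a*, from -0.27 to 0.13 for *per2* and from -0.12 to 0.20 for *arntl1a*. Beyond what each alternative leaves out, the cause was not tested.

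The replicate numbers did not pair the libraries: deviations of same-numbered libraries correlated at -0.041 to 0.006 over 9 pairs. The fit with the replicate block called 2246 genes higher and 2398 lower in mutants, 1590 and 3055 in morphants against wild type, and 560 and 484 between mutants and morphants. It called 1, 1 and 0 clock genes and 8, 6 and 0 other clock genes, and the call of none of the 10 clock genes changed. *dbpa* (adjusted p = 0.0685) and *dbpb* (0.0512) in morphants, and *aanat1* (0.0563) and *bsx* (0.0637) in mutants, were not called in that limma fit. Depth limits the wild-type values most, and *nr1d1*, with 7 to 29 reads there, could show only large differences.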
